A study of Mus musculus with 2 samples.

Results

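The genes described here are the let-7 microRNA genes whose mature RNA comes from 1 genomic copy, together with their relative Mir98. They were taken by symbol (Mirlet7b, Mirlet7d, Mirlet7e, Mirlet7g, Mirlet7i and Mir98), and 6 of the 2202 listed microRNA genes were members. Small RNA was sequenced from the left cerebral cortex of female B6CASTF1/J mice at an age of 10 days. Such mice are the F1 offspring of a laboratory strain, C57BL/6J, crossed with CAST/EiJ, which was bred from wild-caught mice. Reads of the parental alleles were not separated in the counts. The series has 1 group of 2 biological replicates, for which the labels name no treatment, called animal 1 and animal 2 here. The labels number the females differently but give both the same donor entry, so their being separate animals rests on those numbers. With no second condition, levels, their order and the spread between the animals are described.

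Drosha and Dicer cut microRNAs out of hairpin precursors, and the short products lower the output of messenger RNAs that pair with their seed, bases 2 to 8. The let-7 family was found in Caenorhabditis elegans as a switch of developmental timing, and in mammals its mature RNAs build up as neural precursors become neurons. LIN28 proteins of immature cells bind the loop of let-7 precursors and block their maturation, and let-7 in turn represses Lin28a, Lin28b and Hmga2.

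All 6 genes give a mature RNA of 22 bases from the 5′ arm with the let-7 seed, GAGGUAG. The sequences, from RefSeq (GRCm38.p6, the mm10 build), are printed because these 22 letters decide how reads of the relatives can be told apart. They are given 5′ to 3′ with the seed in capitals, and let-7a is added as the family's comparison sequence.
let-7b: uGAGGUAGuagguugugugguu
let-7i: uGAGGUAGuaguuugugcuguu
let-7g: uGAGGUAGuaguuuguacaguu
let-7e: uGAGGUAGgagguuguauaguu
let-7d: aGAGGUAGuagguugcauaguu
miR-98: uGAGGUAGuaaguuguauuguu
let-7a: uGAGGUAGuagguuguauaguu

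Differences from let-7a are written with its base first, then the position from 1 at the 5′ end, then the member's base. let-7e differed at 1 position (U9G). let-7b (A17G, A19G), let-7g (G12U, U18C), let-7d (U1A, U16C) and miR-98 (G11A, A19U) differed at 2 positions each. let-7i differed at 4 (G12U, A17G, U18C, A19U). Among the members, let-7i and let-7g were most alike, with 20 of 22 bases identical and the first 16 bases shared. let-7d was the member that did not open with U, and its first 9 bases already occurred in no other of the 1005 hairpins in the RefSeq table. miR-98 needed 11 bases to be unique there, and let-7b, let-7i, let-7g and let-7e needed 17. No full-length 5′ sequence of a member occurred in another hairpin of the table. At 1 mismatch let-7b matched Mirlet7c-1 and Mirlet7c-2, let-7e matched Mirlet7a-1 and Mirlet7a-2, and let-7i matched Mir7j. By contrast, the 5′ sequences of let-7a, let-7c and let-7f each occurred in 2 hairpins.

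The libraries held 3806078 own-strand reads counted to listed genes in animal 1 and 2602935 in animal 2. Levels are given in CPM, own-strand reads scaled to the customary common library size. The mature arms of all 6 members were 22 bases long, so no correction for length was made when levels were set side by side. Whether different mature sequences were captured equally well was not measured. Differences in level between genes are therefore differences in counted reads. Reads of the 5′ and 3′ arms are summed in each gene's count. Intervals are exact Clopper-Pearson 95% intervals and cover counting error only. Of the 9 neuronal marker genes, 6 reached 10 CPM in both animals. The others, Mir124a-1, Mir124a-2 and Mir124a-3, had 1 to 13 reads per library. Reads that fitted several positions are not in these counts, and the part of them that came from the Mir124a genes was not measured. The list of 9 neuronal genes summed to 4.07% of counted reads in animal 1 and 4.16% in animal 2. The single liver gene Mir122 made up 0.00426 and 0.00419%. Mir122 (42.6 and 41.9 CPM in animals 1 and 2) and the skeletal muscle gene Mir206 (20.8 and 28.0 CPM) also reached 10 CPM. Reaching that limit is therefore no check of the tissue label. In bulk tissue, fewer cells of a type and less RNA per cell cannot be told apart.

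The 6 genes together made a large part of the counted reads. Their share was 22.1% of animal 1's reads (22.0 to 22.1) and 28.2% of animal 2's (28.2 to 28.3), averaging 25.1% ± 4.36 (SD, n = 2). All 6 reached 10 CPM in both animals, as did 13.9% of the listed genes, and every member also exceeded 100 CPM in both. The share of listed genes above 100 CPM was not counted. Mirlet7b, Mirlet7i and Mirlet7g made up 83.7% of the members' reads in animal 1 and 84.7% in animal 2. Of the reads counted to the 12 let-7 genes, the 6 members held 98.1 and 98.3% in animals 1 and 2. The 6 genes of let-7a, let-7c and let-7f held the remaining 0.417% and 0.499% of counted reads. Reads that fitted several positions are in a separate row of the tables, at 42.7% of all reads in animal 1 and 40.4% in animal 2, and the part of them that came from let-7 was not measured here.

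Mirlet7b (ENSMUSG00000065564.1, chromosome 15, 85707319 to 85707403, plus strand) lies inside an exon of the noncoding transcript Lncppara. It had 254744 reads or 66931 CPM in animal 1, and 228594 reads or 87822 CPM in animal 2, with a mean of 7.74% ± 1.48 of counted reads. By counted reads, which leave out those that fitted several positions, it ranked 2 among listed genes in animal 1 and 1 in animal 2. Mirlet7i (ENSMUSG00000065406.3, chromosome 10, 122985640 to 122985724, minus strand) lies inside an exon of the transcribed pseudogene D630033A02Rik and has no listed microRNA gene of its strand within 10 kb. It stood at 62874 CPM in animal 1 and 80618 CPM in animal 2. Mirlet7g (ENSMUSG00000065440.1, chromosome 9, 106178840 to 106178927, plus strand) lies in an intron of Wdr82, which encodes a subunit of a histone H3 lysine methyltransferase complex. It stood at 54763 CPM in animal 1 and 70766 CPM in animal 2, and ranked 4 in both. These are the 3 high members, and each was higher in animal 2.

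Mirlet7e (ENSMUSG00000105758.1, chromosome 17, 17830352 to 17830444, plus strand) lies in an intron of Spaca6, a gene of sperm-egg fusion. It had 79894 reads or 20991 CPM in animal 1, and 58070 reads or 22309 CPM in animal 2, the smallest relative gap among the members. Mirlet7d (ENSMUSG00000065453.1, chromosome 13, 48536012 to 48536114, minus strand) lies inside an exon of the lincRNA 6720427I07Rik. It had 46277 reads or 12159 CPM in animal 1, and 45754 reads or 17578 CPM in animal 2, the widest relative gap among the members. Mir98 (ENSMUSG00000065536.2, chromosome X, 151913214 to 151913321, plus strand) lies in an intron of Huwe1, which encodes a ubiquitin ligase. It stood at 2889 CPM in animal 1 and 3235 CPM in animal 2, ranks 63 and 56. The coefficient of variation of CPM between the animals ran from 4.31% (Mirlet7e) to 25.8% (Mirlet7d), with a median of 17.8% over the members. The median was 19.6% over the 307 genes at 10 CPM or more in both animals and 11.3% over the 60 genes with a mean CPM at or above that of Mir98.

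**Figure D1:**
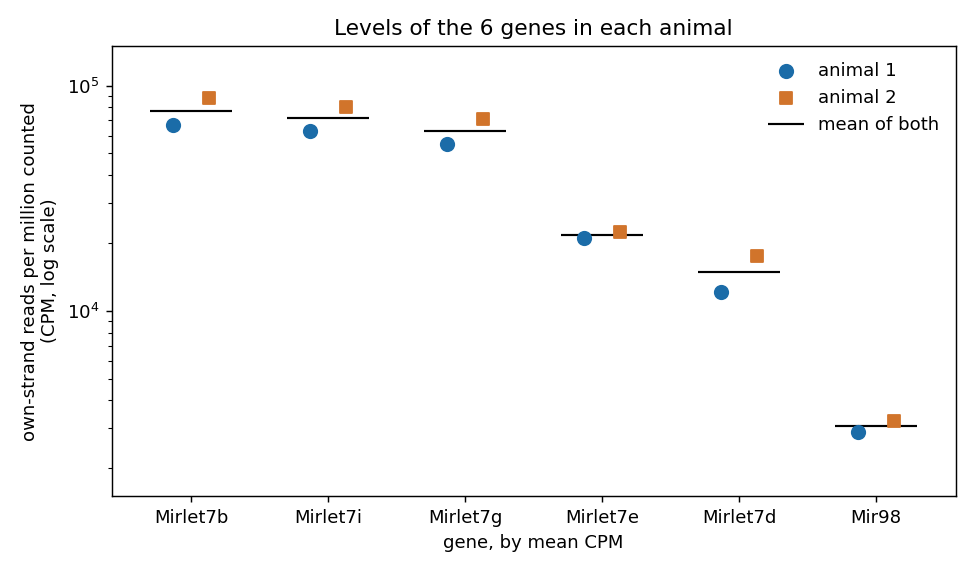
Level of each gene in CPM on a log axis, with a circle for animal 1, a square for animal 2 and a line at their mean. The order of the 6 genes is the same in both animals, and every gene is higher in animal 2.

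The order Mirlet7b, Mirlet7i, Mirlet7g, Mirlet7e, Mirlet7d, Mir98 was the same in both animals, for all 5 neighbouring pairs. In counted reads, the steps at the top were small and steady. Mirlet7b exceeded Mirlet7i 1.06-fold in animal 1 (95% interval 1.06 to 1.07) and 1.09-fold in animal 2 (1.08 to 1.10). Mirlet7i exceeded Mirlet7g 1.15-fold in animal 1 (1.14 to 1.15) and 1.14-fold in animal 2 (1.13 to 1.15). The CPM ranges of these neighbours over the animals overlapped. Within animals, the step between Mirlet7b and Mirlet7i averaged 0.11 ± 0.02 on the log2 scale and that between Mirlet7i and Mirlet7g 0.19 ± 0.0079 (SD, n = 2), each larger than its own spread.

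The lower steps were larger, and the ranges did not overlap. Mirlet7g exceeded Mirlet7e 2.61-fold in animal 1 and 3.17-fold in animal 2. Mirlet7e exceeded Mirlet7d 1.73-fold in animal 1 but 1.27-fold in animal 2, the step that changed most. Mirlet7d exceeded Mir98 4.21-fold in animal 1 and 5.43-fold in animal 2. From top to bottom, Mirlet7b exceeded Mir98 23.2-fold in animal 1 and 27.1-fold in animal 2. With 2 animals the smallest two-sided p a sign-flip permutation test could give is 0.5, so no test of the order was made.

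By log2(CPM + 0.5) in the 2 libraries, the genes nearest to Mirlet7b in level were Mirlet7i (Euclidean distance 0.15) and Mir139 (0.20), among 307 genes. Mirlet7b (0.15) and Mir139 (0.20) were also nearest to Mirlet7i, and Mirlet7i (0.27) and Mir139 (0.41) to Mirlet7g. Mirlet7e was nearest to Mir99a (0.29) and Mir433 (0.46). Mirlet7d was nearest to Mir382 (0.19) and Mir23b (0.32), and Mir98 to Mir335 (0.08) and Mir376a (0.10). Over 2 libraries this distance reflects level more than pattern.

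All 6 members were lower in animal 1 than in animal 2. After TMM scaling, which equalises libraries on the bulk of their genes, the log2 ratio of animal 1 over animal 2 was -0.60 for Mirlet7b (95% interval -0.60 to -0.59). It was -0.57 for Mirlet7g (-0.58 to -0.56) and -0.56 for Mirlet7i (-0.57 to -0.55), so the 3 abundant members moved almost in step. Mirlet7d stood lowest at -0.73 (-0.75 to -0.72), Mir98 at -0.37 (-0.41 to -0.33) and Mirlet7e at -0.29 (-0.31 to -0.28).

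Each of the 6 passed the exact binomial test of the 2 libraries (two-sided, Benjamini-Hochberg adjusted over 531 genes). The adjusted p was 4.7e-67 for Mir98 and 1.4e-294 for Mirlet7e by that exact test, and smaller for the other 4. In the same test 51.6% of genes passed in either direction and 24.7% passed as lower in animal 1. Among the 60 genes with a mean CPM at or above that of Mir98, 90.0% passed in either direction and 65.0% passed as lower in animal 1. At these depths counting error is small, and the test compares these libraries and no condition.

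The size of these differences was set beside that of other genes. The median absolute log2 ratio was 0.57 over the members, 0.51 over all 531 genes and 0.37 over the 60 abundant genes. The common biological coefficient of variation over the 531 genes, members included, was 38.0%, which corresponds to an SD of 0.78 for a log2 ratio of the animals. After TMM every member's ratio was smaller in size than that. This depended on the scaling: Mirlet7d stood at -0.79 with DESeq2 size factors. With upper-quartile scaling Mirlet7d stood at -0.95, Mirlet7b at -0.81, Mirlet7g at -0.79 and Mirlet7i at -0.78. These stand beside the SD after TMM, because none was computed for those scalings. With library totals only the SD was 0.83. Of the 531 genes, 190 had a larger absolute log2 ratio than Mirlet7d, 227 than Mirlet7b and 368 than Mirlet7e. The median log2 ratio was -0.57 over the members, 0.04 over all genes tested and -0.27 over the 60 abundant genes.

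The scaling shifted the ratios of all genes together. With library totals only, the median over all genes tested rose by 0.20 on the log2 scale, and with upper-quartile scaling it fell by 0.22. Relative to the median of all genes, the members' median log2 ratio was -0.61, with Mirlet7d at -0.78 and Mirlet7e at -0.34. Relative to the 60 abundant genes it was -0.30, with Mirlet7d at -0.47 and Mirlet7e at -0.03. Under each scaling tried, every member stayed lower in animal 1.

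**Figure D2:**
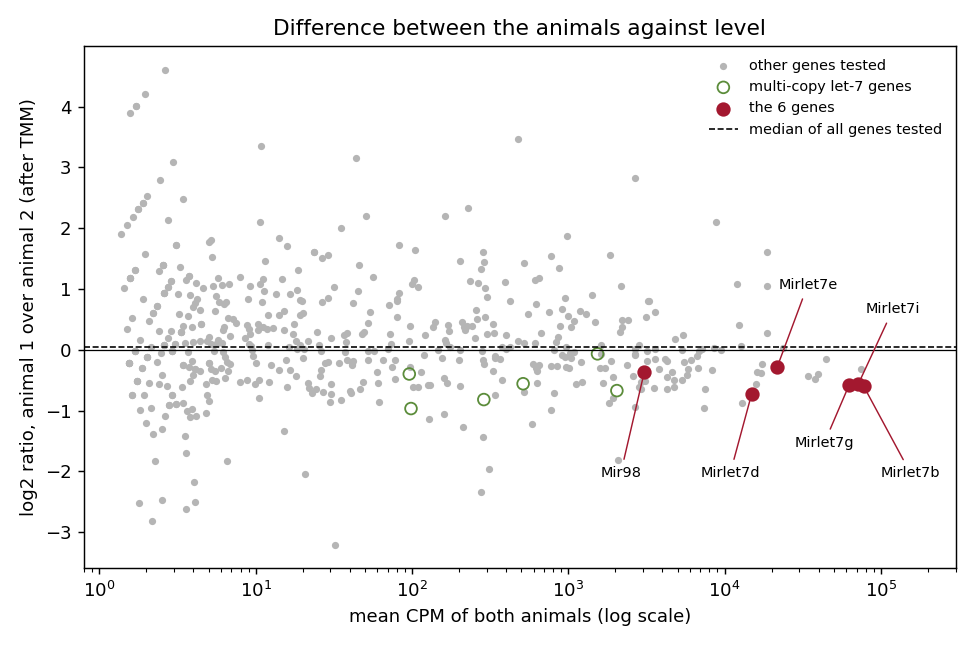
Log2 ratio of animal 1 over animal 2 after TMM against mean CPM on a log axis, with 1 point per gene tested. The 6 genes (filled) lie between -0.73 and -0.29, the multi-copy let-7 genes (open) between -0.97 and -0.07, and the dashed line is the median of all genes tested at 0.04.

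Shares within the members are free of the scaling. Of the reads of all 6 members, Mirlet7e made up 9.52% (9.45 to 9.58) in animal 1 and 7.90% (7.84 to 7.96) in animal 2. Mirlet7d made up 5.51% in animal 1 (5.46 to 5.56) and 6.23% in animal 2 (6.17 to 6.28). Mirlet7i was the steadiest, at 28.5% in animal 1 (28.4 to 28.6) and 28.6% in animal 2 (28.5 to 28.7). Mirlet7b made up 30.3 and 31.1%, Mirlet7g 24.8 and 25.1%, and Mir98 1.31 and 1.15% in animals 1 and 2. So the make-up of the set changed by at most 1.61 percentage points, the change of Mirlet7e.

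Markers of other cells and the share of unmapped reads also differed between the animals. The endothelial gene Mir126a made up 2.89% of counted reads in animal 1 and 0.826% in animal 2, while its partner Mir126b had no read in either. The lists of smooth muscle and pericytes (0.315 and 0.452%), oligodendrocytes (0.119 and 0.164%), blood and microglia (0.0886 and 0.117%), and choroid plexus and ciliated cells (0.111 and 0.150%) were lower in animal 1. Of their tested genes, 2 of 2, 2 of 3, 2 of 6 and 3 of 4 passed after TMM as lower in animal 1. Higher there were 1 oligodendrocyte gene and 2 blood genes. Over all 531 genes, 51.6% passed in either direction and 24.7% as lower in animal 1. Mir204 of the choroid plexus list went against its list's sum, at 865 CPM in animal 1 and 751 CPM in animal 2. After TMM, 1 of the 7 neuronal genes tested was higher in animal 1 (Mir137, log2 ratio 0.03) and 3 were lower. The skeletal muscle gene Mir206 stood at 20.8 CPM in animal 1 and 28.0 CPM in animal 2. Unmapped reads were 17.9% in animal 1 and 23.5% in animal 2. The part of these differences in the let-7 ratios was not tested.

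Of the 6 members, 4 have other microRNA genes of their strand within 10 kb, and these show how far genes of a shared locus moved together. Mirlet7c-2 lies 621 bases before Mirlet7b. Its log2 ratio was -0.67 (95% interval -0.72 to -0.62), close to the -0.60 of Mirlet7b. Mirlet7b had 39.0 times the reads of Mirlet7c-2 in animal 1 and 37.0 times in animal 2. Downstream of Mirlet7a-1 and Mirlet7f-1, Mirlet7d closes their cluster on chromosome 13. Mirlet7a-1 had a log2 ratio of -0.82 (-0.96 to -0.68) and Mirlet7f-1 of -0.97 (-1.20 to -0.73), and both intervals contain the -0.73 of Mirlet7d. Mirlet7d had 53.4 and 50.4 times the reads of Mirlet7a-1 in animals 1 and 2. All of these partners carry a 5′ sequence that occurs in 2 hairpins, so their counts are uncertain and may be too low.

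Mir98 and Mirlet7f-2, 785 bases apart in Huwe1, moved less alike. Mirlet7f-2 had 6129 reads in animal 1 and 3815 in animal 2, a log2 ratio of -0.07 (-0.13 to -0.01) against -0.37 for Mir98. With library totals only it was higher in animal 1, at 0.14. Mir98 had 1.79 times its reads in animal 1 (1.74 to 1.85) and 2.21 times in animal 2 (2.12 to 2.29). The 5′ sequence of Mirlet7f-2 also occurs in 2 hairpins, so its count may be too low. These comparisons with Mir98 are therefore uncertain beyond their intervals.

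Mirlet7e went against both of its partners. Mir99b ends 94 bases before it and Mir125a starts 367 bases after it. Mir99b had 83455 reads in animal 1 and 40750 in animal 2, a log2 ratio of 0.28 (0.27 to 0.30). Mir125a had 64567 reads in animal 1 and 18211 in animal 2, a log2 ratio of 1.07 (1.05 to 1.10). So these genes were higher in animal 1, where Mirlet7e was lower, under each of the 4 scalings. Some of these ratios were small: Mirlet7e stood at -0.09 with library totals only, and Mir99b at 0.07 with upper-quartile scaling. Free of any scaling, Mirlet7e had 0.957 times the reads of Mir99b in animal 1 (0.948 to 0.967) and 1.43 times in animal 2 (1.41 to 1.44). It had 1.24 times the reads of Mir125a in animal 1 (1.22 to 1.25) and 3.19 times in animal 2 (3.14 to 3.24).

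**Figure D3:**
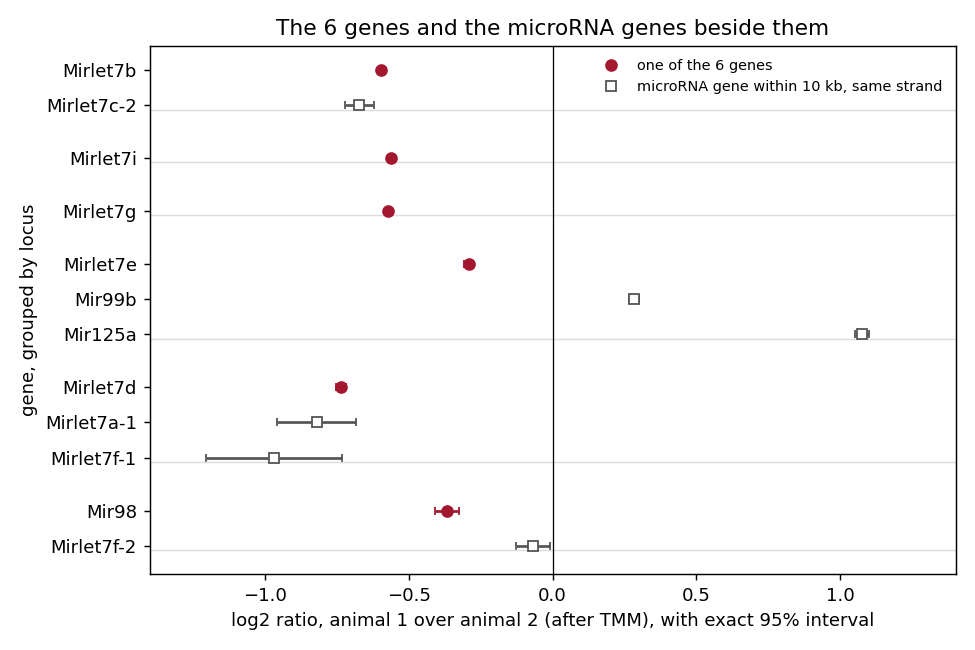
Log2 ratio of animal 1 over animal 2 after TMM with exact 95% intervals, for the 6 genes (circles) and the microRNA genes of the same strand within 10 kb (squares), grouped by locus. The 6 genes and their let-7 partners lie left of 0 (Mirlet7f-2 right of it with library totals only), whereas Mir99b and Mir125a, beside Mirlet7e, lie at 0.28 and 1.07.

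The members' reads came from their own strand. Mirlet7b had 2 opposite-strand reads in animal 1 and 3 in animal 2, and the other 5 members had none in either library. Mirlet7e overlaps the annotated microRNA gene Gm25927 on the opposite strand, which had no own-strand read in either library. In the column that ignores strand, Mirlet7e was therefore listed at 0, while the counts of the other members changed by at most 3 reads.

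Other genes carry the let-7 seed too. The RefSeq table lists a mature RNA with bases 2 to 8 GAGGUAG under 13 genes, the 6 members among them. It lists none under Mirlet7a-2, whose hairpin holds the let-7a sequence too. Mir1961 and Mir7k, which have this seed and a shorter mature RNA, had no read in either library, which allows up to 0.788 CPM in animal 1 and 1.15 CPM in animal 2. Mirlet7c-2 was the highest of the multi-copy genes, at 1716 CPM in animal 1 and 2375 CPM in animal 2, below the level of Mir98. Mir7j, the match of let-7i at 1 mismatch and singled out after its sequence was compared, had 88 reads in animal 1 and 95 in animal 2.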

How the data were processed

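Whole-number read counts per microRNA gene were deposited, 1 table per library, with build mm10 and GENCODE annotation M21 per the notes beside the tables. Which aligner and counter made them is not stated there. The tables have 3 columns of counts (both strands, own strand, opposite strand), and own-strand counts were used. The 4 rows that name no gene were left out: 66.5% of reads in animal 1 and 69.6% in animal 2. All 2202 identifiers matched M21.

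CPM and shares were computed from the counts. The libraries were compared with an exact conditional binomial test given TMM effective sizes (factors 1.07 and 0.932, edgeR 4.0.16, R 4.3.3), on 531 genes with at least 10 counts in sum, adjusted over all of them at a threshold of 0.05. Log2 ratios add 0.5 to each count. The common coefficient of variation is the square root of edgeR's common dispersion, with an intercept-only design. For a single gene, the coefficient of variation is the SD of its CPM over the mean. Python 3.11.15 and scipy 1.17.1 were used. Both procedures were tested on simulated data. Matches were searched in RefSeq sequences, where all 6 members were found. The loop sequences are not reported here.

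Named genes are the members, the other let-7 genes, genes of the same strand within 10 kb, genes with the seed and the 2 nearest in level. Members, lists and tests were chosen with earlier results of these data known. Alternatives were other scalings, count filters, the unstranded column, denominators, detection limits and single animals.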

Additional observations from a re-analysis of the deposited data

Results flagged for a closer look

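Reads that mapped to several positions stand outside every comparison above and far exceed the 3 counts that a count of 0 allows. There were 4850682 of them in animal 1 and 3454278 in animal 2. They are not assigned to genes, so their let-7 content was not measured here.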

How the results depend on the processing

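No paired analysis was possible because the series has 1 group. The summed share of the 6 genes was 8.0% when taken over all reads of a library, since most reads were not counted to a gene, and ran from 22.1 to 28.2% with either animal left out. The 47 recomputed log2 ratios of members had the same sign and side of the threshold as the reported ones. Part of this was fixed in advance. The count filters leave a member's ratio unchanged, and adding 5 to each count hardly alters it at these depths. The members' median log2 ratio ranged from -0.78 (upper quartile) to -0.36 (library totals only), and was -0.49 with totals that leave out the 12 let-7 genes, an alternative chosen after seeing the data. The number of genes differing between the libraries ran from 241 to 280, but the number tested varied too. It was 241 of 307 genes with at least 100 counts and 263 of 770 with no filter beyond 1 count. With library totals only it was 280 of 531. Of the calls, 47.8% were lower in animal 1 with TMM, 32.5% with library totals only and 62.8% with upper-quartile scaling. In the unstranded column Mirlet7e was at 0 and 5 members could be compared. The common coefficient of variation was 40.7% with library totals only. With 2 animals an SD rests on a single difference. Counting error is below it for the CPM of each member. For the step from Mirlet7i to Mirlet7g and for Mirlet7i's share of the members' reads, the counting intervals of the animals overlap.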
